A study of Homo sapiens with 6 samples.

Results

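The RING-between-RING (RBR) ubiquitin ligases examined here were 10 genes, RNF144A, RNF144B, RNF14, RNF19A, RNF19B, ARIH1, ARIH2, RNF216, RNF31 and RBCK1, out of 60612 genes in the count table. They were chosen by family and with the measured counts of this contrast in view, since RNF144A and RNF14 were known to be higher and RNF144B lower after the knockdown. The changes of the 10 members are therefore given as a description, with no p-value, and where the members past a threshold are counted, the count only places them beside all genes. All 10 were among the 18106 genes with enough reads to be tested, and 3 further RBR genes (ANKIB1, CUL9 and RNF217) were used for comparison.

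RNA was sequenced from U87, an established human glioblastoma cell line, after knockdown of PRMT6, an arginine methyltransferase that modifies histone H3 and other proteins. The NC group held 3 libraries of cells given a scramble shRNA by lentivirus, and the shPRMT6 group held 3 libraries of cells given a lentiviral shRNA against PRMT6. Both groups were grown in DMEM with 10% serum, and both carried a lentiviral hairpin under puromycin selection according to the methods, so no uninfected cells enter the comparison. The methods list 3 PRMT6 hairpins, and the sources used here do not name the hairpin or hairpins that were sequenced. The labels number the shPRMT6 libraries as shRNA and the NC libraries as NC. They do not say whether a number after shRNA stands for a replicate or for a hairpin. The methods describe 3 independent replicates, and the libraries are called replicates here.

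Ubiquitin is passed from an activating enzyme (E1) to a conjugating enzyme (E2), and a ligase (E3) brings it to a substrate. In RBR ligases the first RING domain binds the loaded E2, as a RING ligase would, and ubiquitin then moves to a cysteine of the second RING before it reaches the substrate, as in a HECT ligase. Many members are held inactive by their own domains until a partner releases them. HOIP, which builds linear ubiquitin chains in inflammatory signalling, is among the best known.

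Library totals lay between 56388161 and 75887696 counts. PRMT6 was measured at 9.33, 7.97 and 7.19 CPM (reads scaled to library size and composition) in the NC libraries and at 3.57, 4.58 and 5.24 CPM in the shPRMT6 libraries, which did not overlap. Its log2 fold change was -0.87 (SE 0.187, adjusted p = 0.0225 by the quasi-likelihood test of edgeR, Benjamini-Hochberg adjusted over all genes tested as are all adjusted p below). PRMT6 was called in 11 of 16 fits, with adjusted p up to 0.0803, and in 3 of the 6 that left out a library. All 6 marker genes of U87 (VIM, CD44, NES, FN1, TNC and SPARC) were at 1 FPKM or more in every library. None of 4 glial lineage markers reached 1 FPKM in any library, GFAP among them, and S100B had no counts. Markers of other cells did not reach 1 FPKM either, and CD3E and MOG had no counts. In bulk RNA, fewer cells of a type and less RNA per cell cannot be told apart.

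RNF144A and RNF14 stood about 2 times higher in shPRMT6 cells, RNF144B stood at 57.9% and RNF19B at 73.6% of the NC level, and the other 6 ligases had smaller changes or wide replicate spread. By edgeR, 3362 of the 18106 genes (18.6%) had an adjusted p under 0.05, with 9.51% of all genes higher and 9.06% lower. Of the 10 members 4 did, RNF144A and RNF14 higher and RNF144B and RNF19B lower, and nothing is read from that count because the same contrast chose the members. The libraries of the groups did not overlap for 6 members, 3 higher (RNF144A, RNF14 and ARIH2) and 3 lower (RNF144B, RNF19B and RNF216). That was so for 40.2% of all genes tested, 20.3% higher and 19.9% lower. DESeq2 called 5 members beside 31.9% of all genes, edgeR with a replicate block 4 beside 10.3%, and an unadjusted p under 0.05 with an absolute log2 fold change above 1 kept 1 (RNF14) beside 5.92%. The median log2 fold change was -0.05 over the members and -0.01 over all genes, and the median absolute change was 0.31 in both. Leaving out NC replicate 3 or any single shPRMT6 library lowered the number of genes called to between 1755 and 1939. The members called then numbered 3 or 4, since RNF19B missed the threshold without NC replicate 3, shPRMT6 replicate 2 or shPRMT6 replicate 3.

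**Figure D1:**
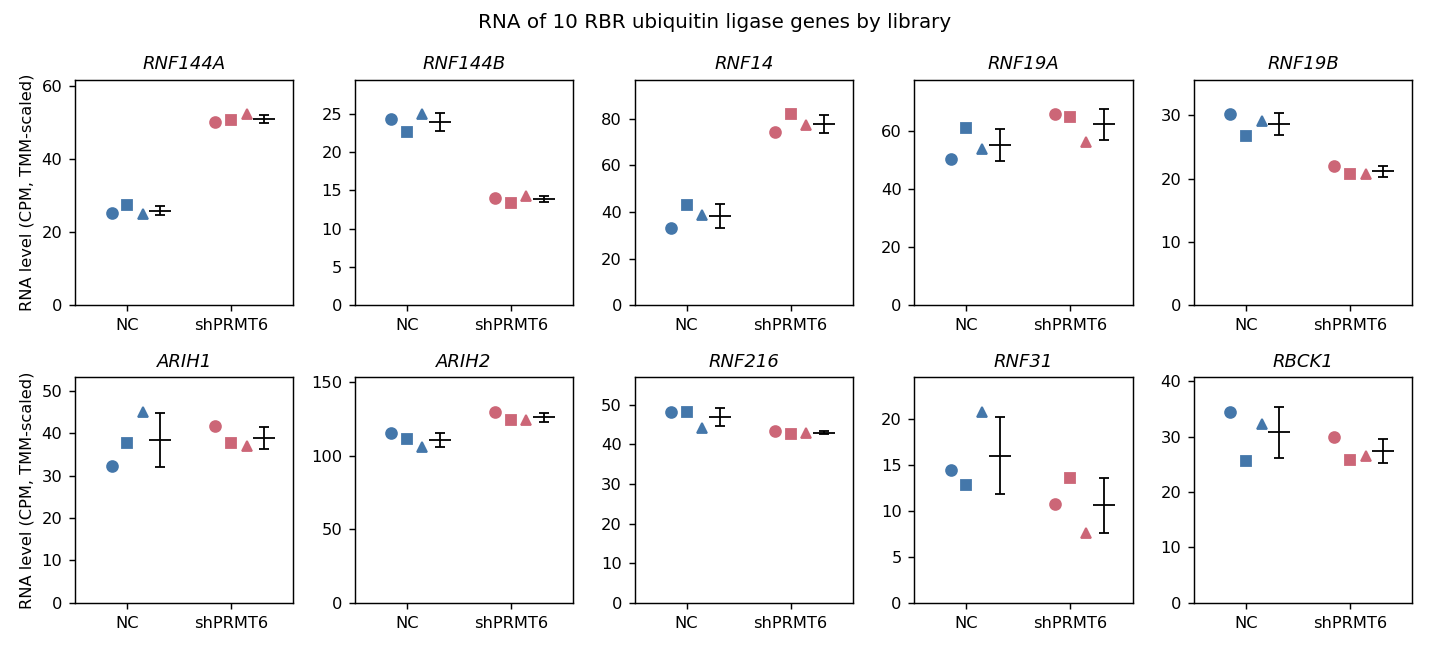
Level of each of the 10 RBR ligases in every library (CPM), with NC and shPRMT6 side by side, marker shapes for replicates 1, 2 and 3, and black bars for the mean ± SD (n = 3). The groups are apart for 6 of the 10 genes, as they are for 40.2% of all genes tested. The gap is widest for RNF144A (25.9 against 50.9 CPM) and RNF14 (38.2 against 77.8 CPM), both used in choosing the family. RNF31 spreads most within both groups relative to its level.

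**Figure D2:**
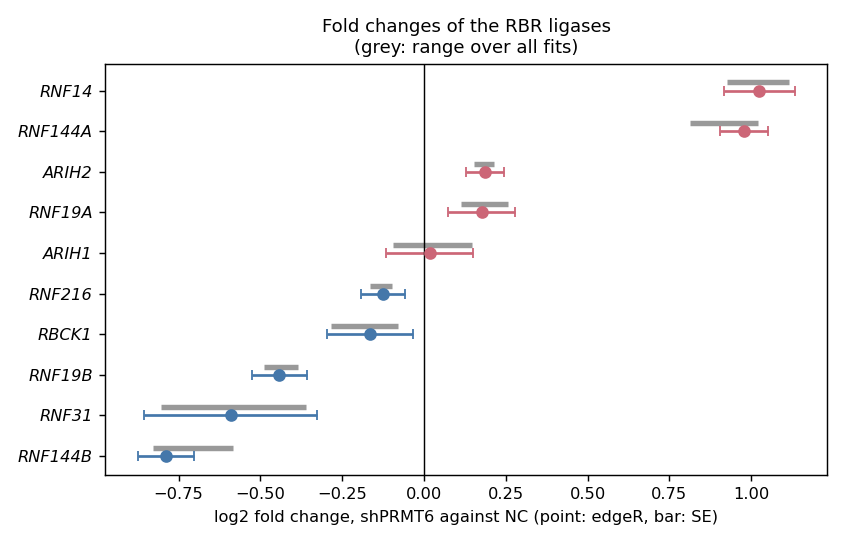
Log2 fold change of each ligase in shPRMT6 against NC with its standard error, and in grey the range over all 16 fits. RNF14 (1.02) and RNF144A (0.98) lie highest, RNF144B (-0.79) lies lowest, and the range of ARIH1 alone crosses zero.

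RNF144A and RNF144B are paralogs with a membrane anchor, and they moved in opposite directions. RNF144A is known to target DNA-PKcs, the DNA repair kinase encoded by PRKDC. It had 1415, 2081 and 1554 counts in the NC libraries and 3190, 3110 and 3536 counts in the shPRMT6 libraries. Scaled for depth, these were 25.3, 27.4 and 24.9 CPM against 50.1, 50.5 and 52.2 CPM. Every shPRMT6 library was far above every NC library, and the replicates of each group lay close together. The log2 fold change was 0.98 (SE 0.0729), or 1.97-fold, and lay between 0.81 and 1.02 over the fits.

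The CDK inhibitor p21 has been described among the substrates of RNF144B. It had 1358, 1724 and 1558 counts in NC and 891, 824 and 966 in shPRMT6. In CPM these were 24.3, 22.7 and 25.0 against 14.0, 13.4 and 14.3. All shPRMT6 libraries were below all NC libraries, at a mean of 13.9 ± 0.447 against 24.0 ± 1.17 CPM (SD, n = 3 each). The log2 fold change was -0.79 (SE 0.0853), and 16.6% of all genes tested had an absolute change at least as large. Over the fits it lay between -0.83 and -0.58.

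In FPKM the order of the pair turned over. The ratio of RNF144A to RNF144B, each in FPKM and so per length, was 0.835, 0.967 and 0.800 in the NC libraries and 2.87, 3.03 and 2.94 in the shPRMT6 libraries. By this measure RNF144B was higher in every NC library and RNF144A in every shPRMT6 library. In CPM, without scaling for length, RNF144A had 25.3, 27.4 and 24.9 and RNF144B 24.3, 22.7 and 25.0 in NC. The NC order therefore rests on the gene lengths behind FPKM. No 75-base stretch of the exons of either gene occurs in exons of another gene.

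**Figure D3:**
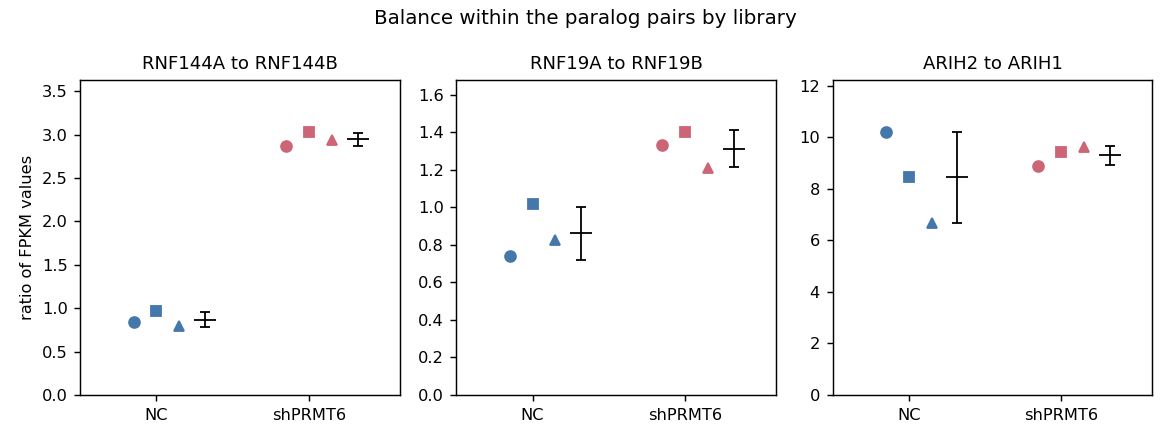
Ratio of FPKM within pairs of related ligases in each library, on linear axes that start at 0, with black bars for the mean ± SD of 3 libraries per group. RNF144A to RNF144B goes from 0.867 in NC to 2.95 in shPRMT6 and RNF19A to RNF19B from 0.861 to 1.31, while the ranges of ARIH2 to ARIH1 overlap.

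The promoters of the 3 genes that were used in choosing the family are shown because they differ in composition. Each is the RefSeq window (GRCh38.p14) from 250 bases before to 50 bases after a transcript start, on the plus strand, and for RNF144A and RNF14, with more than 1 entry, the one with the most CpG dinucleotides is printed. Capitals mark the GC box GGGCGG or its reverse complement in the first. They mark TATAAA in the second. In the third they mark the reverse complement of CCAAT. RNF144A is at chr2:6917162-6917461, RNF144B at chr6:18387100-18387399 and RNF14 at chr5:141968855-141969154.
RNF144A: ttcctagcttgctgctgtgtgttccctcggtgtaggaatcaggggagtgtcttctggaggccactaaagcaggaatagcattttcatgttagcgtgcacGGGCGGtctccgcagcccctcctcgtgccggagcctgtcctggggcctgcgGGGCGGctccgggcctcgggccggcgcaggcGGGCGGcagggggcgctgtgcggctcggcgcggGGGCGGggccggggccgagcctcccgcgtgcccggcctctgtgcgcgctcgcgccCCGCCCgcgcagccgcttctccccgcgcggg
RNF144B: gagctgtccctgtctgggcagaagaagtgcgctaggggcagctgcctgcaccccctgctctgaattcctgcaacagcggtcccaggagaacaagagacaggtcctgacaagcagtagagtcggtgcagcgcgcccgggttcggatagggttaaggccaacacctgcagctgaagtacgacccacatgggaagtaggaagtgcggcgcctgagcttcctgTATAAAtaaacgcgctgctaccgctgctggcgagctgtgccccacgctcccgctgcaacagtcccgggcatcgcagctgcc
RNF14: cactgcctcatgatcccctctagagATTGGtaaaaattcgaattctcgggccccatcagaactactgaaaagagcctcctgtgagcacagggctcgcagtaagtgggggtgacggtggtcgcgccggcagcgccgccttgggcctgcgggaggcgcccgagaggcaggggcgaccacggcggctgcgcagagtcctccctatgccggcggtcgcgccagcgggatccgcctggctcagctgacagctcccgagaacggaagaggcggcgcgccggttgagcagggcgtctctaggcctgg
The RNF144A window holds 37 CpG and 5 GC boxes at 74.0% GC. The RNF144B window holds 18 CpG and a TATA box at bases -31 to -26 from the start. The RNF14 window holds 29 CpG and 1 CCAAT on the minus strand at bases -225 to -221. Both genes with a further entry have a CpG-poor one, with 5 CpG for RNF144A and 1 for RNF14.

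RefSeq windows were used for 8 of the 10 members, 11 entries in all, and not for RNF19A and RNF19B. Any member entry on chromosome 8, where RNF19A lies, was left out, while the promoters of all genes kept that chromosome. TATAAA occurred in 1 of the 11, that of RNF144B, and in 11.5% of 35116 promoters of the same length. GGGCGG occurred in 5 of 11 and in 45.0% of all promoters, and CCAAT in 3 of 11 and in 34.6%. None of the 11 held CACGTG (an E-box, 7.26% of all promoters), TGANTCA (AP-1, 7.71%) or TGACGTCA (a CRE, 1.85%). The search covered both strands and no motif counted overlaps another in the printed windows. The median promoter has 14 CpG, and 8 of the 11 entries had at least that many. A match is only a description of these letters.

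RNF14 acts with GCN1 and RNF25 in clearing translation factors trapped on stalled ribosomes. It had 1844, 3262 and 2426 counts in NC and 4724, 5041 and 5242 in shPRMT6. In CPM these were 33.0, 42.9 and 38.9 against 74.2, 81.9 and 77.4. The lowest shPRMT6 library was well above the highest NC library, and NC replicate 1 was the lowest of all. The log2 fold change of 1.02 (SE 0.108) was the largest of the family, lay between 0.93 and 1.11 over the fits, and corresponds to 2.04-fold. It was the only member above 1, with RNF144A just under. Of 75-base stretches in the exons of RNF14, 1.62% also lie in exons of other genes. Its exons overlap 108 bases of the opposite-strand gene PCDH12, which had 20 to 39 counts per library. The library kit does not mark strand, so reads from an overlap on the opposite strand cannot be told apart.

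RNF19A (dorfin) and RNF19B (NKLAM) are paralogs as well. RNF19A is known for ubiquitylating mutant SOD1, and RNF19B for its part in killing by natural killer cells. RNF19A was at 50.2, 61.0 and 53.9 CPM in NC and 65.7, 64.9 and 56.1 CPM in shPRMT6, so that shPRMT6 replicate 3 lay inside the NC range. Its log2 fold change was 0.18 (SE 0.102). RNF19B was at 30.2, 26.8 and 29.1 CPM in NC and 22.0, 20.7 and 20.7 CPM in shPRMT6, with no overlap, and its log2 fold change was -0.44 (SE 0.0847). The ratio of RNF19A to RNF19B in FPKM was 0.742, 1.02 and 0.825 in NC and 1.33, 1.40 and 1.21 in shPRMT6, higher in each shPRMT6 library than in any NC library. Within exons of RNF19A, 2.06% of 75-base stretches also lie in exons of another gene, and of RNF19B none.

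ARIH1 and ARIH2, the ariadne ligases, work with cullin-RING ligases that carry NEDD8, ARIH2 mainly with CUL5. ARIH1 was at 32.2, 37.7 and 45.0 CPM in NC and 41.7, 37.7 and 36.9 CPM in shPRMT6. All 3 shPRMT6 libraries lay within the NC range, and the log2 fold change was 0.02 (SE 0.132). It was -0.10 without NC replicate 1 and -0.04 without shPRMT6 replicate 1. ARIH2 was at 115, 112 and 106 CPM in NC and 130, 124 and 124 CPM in shPRMT6, with a log2 fold change of 0.19 (SE 0.0593). Its groups were apart, although the difference was small beside that of RNF14. Of 75-base stretches in the exons, 11.7% for ARIH1 and 9.34% for ARIH2 also lie in exons of other genes. The ratio of ARIH2 to ARIH1 in FPKM was 8.44 ± 1.75 in NC and 9.30 ± 0.376 in shPRMT6 (SD, n = 3 each), with overlapping ranges.

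Of 16 cullin and NEDD8 pathway genes tested, 1 rose and 1 fell by edgeR, beside 9.51% and 9.06% of all genes tested. Their median log2 fold change was 0.10. CUL4B, the scaffold of a CRL4 ligase, rose by a log2 fold change of 0.38 (adjusted p = 0.0266, edgeR). UBE2M, the E2 that loads NEDD8 on most cullins, had a log2 fold change of -0.44 (adjusted p = 0.0200, edgeR). Both calls were lost when certain single libraries were left out. The adjusted p of CUL4B by edgeR was 0.0612, 0.0614, 0.0769, 0.0737 and 0.0897 without NC replicate 1, NC replicate 3 and shPRMT6 replicates 1, 2 and 3, and 0.0778 with a replicate block. That of UBE2M was 0.0673, 0.0575, 0.0712 and 0.0767 in edgeR without NC replicate 3 and shPRMT6 replicates 1, 2 and 3.

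RNF31 (HOIP) and RBCK1 (HOIL-1) form the linear ubiquitin chain assembly complex with SHARPIN, and RNF31 is the subunit that makes the linear bonds. RNF31 was at 14.5, 12.8 and 20.8 CPM in NC and 10.8, 13.6 and 7.60 CPM in shPRMT6. The groups overlapped, and the highest library was 1.62 times the lowest in NC and 1.79 times in shPRMT6. The coefficient of variation was 26.2% in NC and 28.2% in shPRMT6, against medians of 8.91% and 6.05% over 10051 genes. The log2 fold change was -0.59 (SE 0.264), between -0.80 and -0.36 over the fits. RBCK1 was at 34.5, 25.6 and 32.2 CPM in NC and 29.9, 25.9 and 26.4 CPM in shPRMT6, overlapping, with a log2 fold change of -0.17 (SE 0.132), and shares none of its 75-base stretches.

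Of 75-base stretches in the exons of RNF31, 29.2% also lie in exons of other genes. The opposite-strand gene PSME2, with 4697 to 7385 counts per library, covers 216 of its exon bases (4.34%). An annotated gene on the same strand, ENSG00000259529 (AL136295.5), covers 34.8% of the exon bases of RNF31. It had 822, 1687 and 736 counts in NC and 1041, 463 and 1214 counts in shPRMT6. In each group the library with the fewest counts here had the most for RNF31. With both genes summed, the levels were 29.2, 35.0 and 32.6 CPM in NC and 27.1, 21.1 and 25.5 CPM in shPRMT6, and the groups no longer overlapped. The summed log2 fold change was -0.39 (SE 0.123). How reads were divided among these genes was not tested, so the level of RNF31 alone is uncertain.

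SHARPIN was at 35.1 ± 4.71 CPM in NC and 41.6 ± 2.60 CPM in shPRMT6 (SD, n = 3 each; log2 fold change 0.25, adjusted p = 0.198 by edgeR). Of the 12 genes around linear chains, 2 rose and 2 fell by edgeR, beside 9.51% and 9.06% of all genes tested. CYLD, a deubiquitinase that cuts linear chains, rose from 90.9 ± 20.1 to 160 ± 2.51 CPM (log2 fold change 0.81, SE 0.148, adjusted p = 0.0128 by edgeR). OPTN, a reader of these chains, rose from 134 ± 5.88 to 198 ± 1.16 CPM (0.57, SE 0.0557, adjusted p = 0.0018 by edgeR). TNFAIP3 (A20), an inhibitor of NF-κB signalling that binds linear chains, fell from 49.5 ± 2.02 to 29.5 ± 0.178 CPM (-0.75, SE 0.0682, adjusted p = 0.0015 by edgeR). TNIP1, a partner of A20, fell from 493 ± 10.2 to 379 ± 11.5 CPM (-0.38, SE 0.0496, adjusted p = 0.0043 by edgeR). These 4 were called in all 16 fits, and the list median was 0.12. The list was chosen with earlier results of these data known.

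RNF216 (TRIAD3), whose described substrates include TRAF3 and BECN1, was at 48.1, 48.2 and 44.2 CPM in NC and 43.4, 42.7 and 42.8 CPM in shPRMT6. Every shPRMT6 library was lower, by little, and the log2 fold change was -0.13 (SE 0.0682). Of 75-base stretches in its exons, 0.701% are shared with another gene.

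Of the 3 further RBR genes, all tested, 0 passed the threshold by edgeR, beside 18.6% of all genes. However, 1 of them, ANKIB1, had an unadjusted p under 0.05 by edgeR and was called by DESeq2, which called 31.9% of all genes. ANKIB1, close to the ariadne ligases, was at 109 ± 10.5 CPM in NC and 128 ± 5.21 CPM in shPRMT6 (log2 fold change 0.23, adjusted p = 0.107 by edgeR). CUL9, which holds a cullin and an RBR domain, was at 14.5 ± 0.682 and 12.6 ± 1.30 CPM (-0.20, adjusted p = 0.255 by edgeR). RNF217 was at 22.5 ± 4.99 and 24.7 ± 2.74 CPM (0.13, adjusted p = 0.660 by edgeR).

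In NC cells ARIH2 stood first at 11.6 FPKM, followed by RNF19B at 9.24, RNF19A at 7.91, RNF14 at 6.45 and RNF216 at 5.20 FPKM. RBCK1 was at 4.97, RNF144B at 3.90, RNF144A at 3.37, RNF31 at 2.66 and ARIH1 at 1.41 FPKM. Among neighbours in that order, the ranges of RNF19B and RNF19A, RNF19A and RNF14, RNF216 and RBCK1, and RNF144A and RNF31 overlapped. In shPRMT6 cells ARIH2 at 13.3 FPKM and RNF14 at 13.2 FPKM headed the order with overlapping ranges. They were followed by RNF19A at 8.99, RNF19B at 6.84, RNF144A at 6.68, RNF216 at 4.79 and RBCK1 at 4.45 FPKM. RNF144B at 2.27, RNF31 at 1.77 and ARIH1 at 1.43 FPKM came last. The ranges of RNF19B and RNF144A, RNF216 and RBCK1, RNF144B and RNF31, and RNF31 and ARIH1 overlapped as well. By group mean RNF14 moved from rank 4 to 2, RNF144A from 8 to 5 and RNF19B from 2 to 4, where ranks 1 and 2 and ranks 4 and 5 in shPRMT6 are not separated beyond their spread.

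The FPKM of the 10 ligases summed to 55.7, 56.6 and 57.8 in NC and 64.8, 64.4 and 62.0 in shPRMT6. RNF14 made up 11.4% of that sum in NC and 20.7% in shPRMT6, RNF144A 5.95% and 10.5%, RNF19B 16.3% and 10.7%, and RNF144B 6.88% and 3.57%. ARIH2 kept close to the same share, 20.5% and 20.9%.

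**Figure D4:**
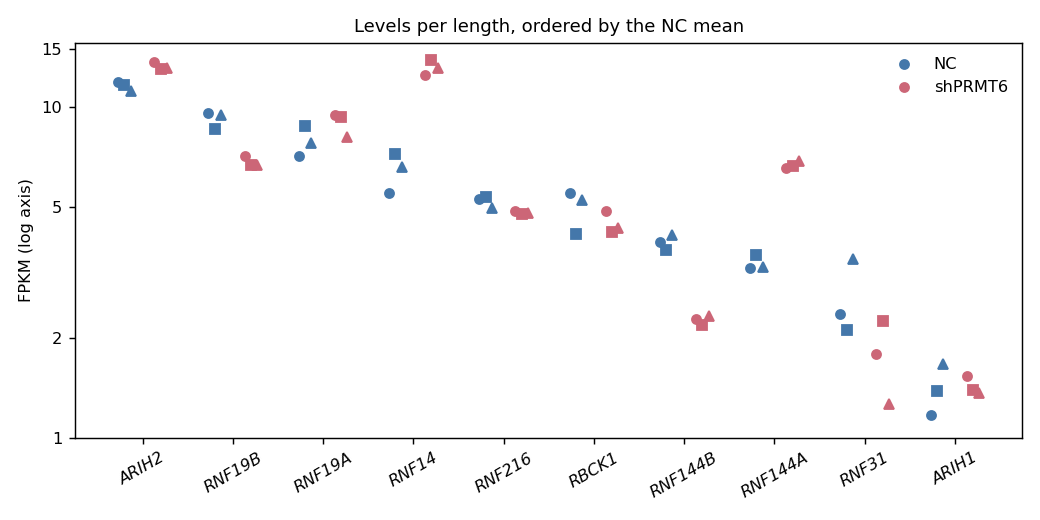
FPKM of the 10 ligases in each library on a log axis, ordered by the NC mean, with NC and shPRMT6 beside each other. By group mean ARIH2 is first (11.6 and 13.3 FPKM) and ARIH1 last, but in shPRMT6 the libraries of ARIH2 and RNF14 (13.2 FPKM) overlap, as do those of RNF31 and ARIH1.

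Of 13 E1 and E2 genes and 4 ubiquitin genes tested, 0 passed the threshold by edgeR or DESeq2. Of all genes, 18.6% passed it by edgeR and 31.9% by DESeq2. By edgeR 0 of the listed genes had an unadjusted p under 0.05, with log2 fold changes from -0.25 to 0.32 among the E1 and E2 genes. UBE2L3 (UBCH7), the E2 with which RBR ligases typically work, was at 190 ± 11.6 CPM in NC and 207 ± 2.13 CPM in shPRMT6 (log2 fold change 0.13, adjusted p = 0.212 by edgeR).

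Of 15 partners and described substrates, 13 could be tested, with a median log2 fold change of 0.04. Of these, 1 rose and 3 fell by edgeR, beside 9.51% and 9.06% of all genes tested. Only RNA was measured here, whereas a ligase acts on protein, so whether any ligase acted on these was not tested. CDKN1A (p21) fell from 421 ± 45.0 to 260 ± 8.43 CPM (log2 fold change -0.69, adjusted p = 0.0036 by edgeR). BECN1, an autophagy factor, rose from 52.7 ± 2.46 to 73.2 ± 4.71 CPM (0.47, adjusted p = 0.0080 by edgeR). EEF1A1, a translation elongation factor, had a log2 fold change of -0.21 (adjusted p = 0.0307 by edgeR), which was lost without any single library, with adjusted p between 0.0513 and 0.0872 by edgeR. It was also lost with a replicate block (adjusted p = 0.0745, edgeR), with a filter of 1 count (0.0784, edgeR) and with limma on unfiltered FPKM (0.189). PRKDC (DNA-PKcs) had a log2 fold change of -0.54 (adjusted p = 0.0313 by edgeR). Its call was lost without NC replicate 2, NC replicate 3, shPRMT6 replicate 1 or shPRMT6 replicate 2, with adjusted p between 0.0610 and 0.104 by edgeR, with a replicate block (0.0548) and with limma on unfiltered FPKM (0.0800).

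Over all lists 10 of 61 genes tested were called, or 16.4%, beside 18.6% of all genes. Without NC replicate 3, shPRMT6 replicate 1 or shPRMT6 replicate 2 that number was 6.

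**Figure D5:**
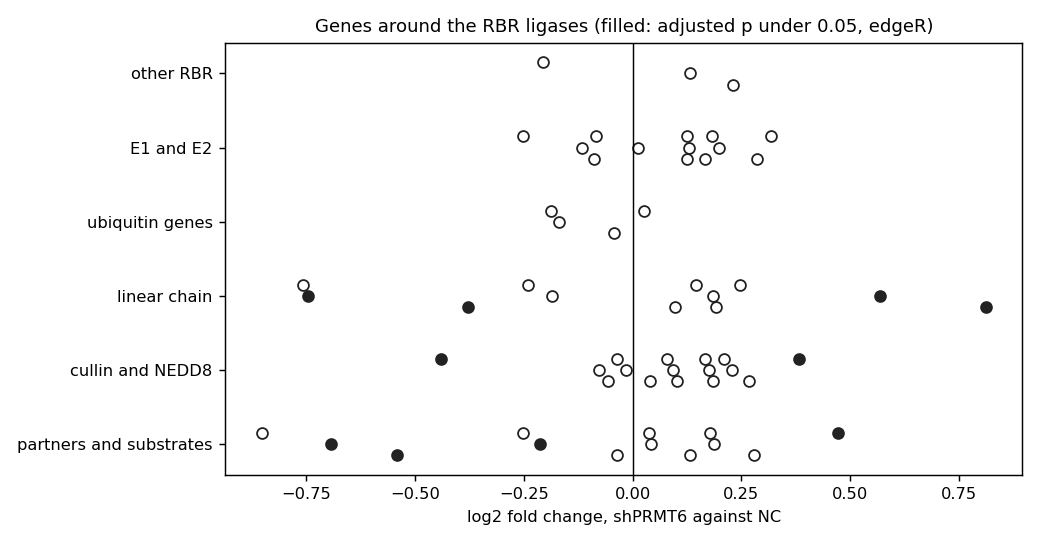
Log2 fold change in shPRMT6 against NC for each gene of the lists around the ligases, with filled points for adjusted p under 0.05 by edgeR. Both directions occur among linear chain genes (CYLD at 0.81, TNFAIP3 at -0.75), and no E1, E2 or ubiquitin gene has a filled point. Of all genes tested, 18.6% had an adjusted p under 0.05 by edgeR.

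The genes nearest to the 3 members in their pattern over the 6 libraries were found among 10050 genes by the root mean square difference of centred log2 CPM. For RNF144A they were HMGA2 (0.0294), IL36B (0.0347) and PALMD (0.0385). For RNF144B they were TMEM201 (0.0338), ATXN7L3 (0.0343) and ZNF395 (0.0389). For RNF14 they were TNXB (0.0516), ARHGAP18 (0.0521) and ENSG00000273038 (0.0544), and TNXB has a near-identical pseudogene copy, which leaves its count uncertain. With only 2 groups, any gene with a like fold change and small spread comes close by this measure.

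By GENCODE 29 on GRCh38, RNF144A lies at chr2:6917392-7068286, RNF144B at chr6:18387350-18468874 and RNF14 at chr5:141958328-141990291, all on the plus strand. RNF19B lies at chr1:32936445-32964685 and RNF216 at chr7:5620047-5781739, both on the minus strand, and RNF19A on the minus strand of chromosome 8. ARIH1 lies at chr15:72474326-72602985, ARIH2 at chr3:48918821-48986382, RNF31 at chr14:24146683-24160661 and RBCK1 at chr20:407498-430966, on the plus strand. No pair of members shares a chromosome.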

How the data were processed

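RNA-seq libraries of 3 NC and 3 shPRMT6 U87 cultures, grouped by their labels, were made with a kit that does not mark strand. The authors deposited 1 table of raw read counts and FPKM for 60612 genes, and the submitters' processing notes name HISAT2, HTSeq 0.13.5 and GRCh38. Annotation release and strand setting are not given in the sources used here. All sample columns were used (0 unmapped).

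Counts were tested with edgeR 4.0.16 (TMM, filterByExpr, quasi-likelihood, Benjamini-Hochberg over 18106 genes, threshold 0.05) in R 4.3.3. FPKM as deposited by the authors served only for levels between genes and for limma 3.58.1 alternatives, with a pseudocount of 1 or 0.1. DESeq2 1.42.0 was another alternative. Summing RNF31 with ENSG00000259529 was added after seeing the data. The programs were tested on simulated counts with the same dispersion for every gene. At an absolute log2 fold change of 1, edgeR recovered 86.6% and DESeq2 77.3% of 194 changed genes. For limma it was 100% of 123. False calls made up 6.15%, 6.83% and 6.82% of calls. A first criterion over all changed genes failed and was replaced by one on a mean of at least 100 counts, where each program recovered 100%. Fold changes are shPRMT6 against NC. The SE of an edgeR fit is the absolute log2 fold change over the square root of its F statistic.

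The members and lists were chosen with earlier results of these data known. Some genes and 1 list set up for this comparison are not reported here and enter no count of list genes. Named genes were the RBR genes, PRMT6, the called genes of each list (the 4 with the smallest p where more were called) and the 3 nearest genes to RNF144A, RNF144B and RNF14. Outside that rule, SHARPIN and UBE2L3 are named as partners of the ligases, genes that overlap a member's exons are named beside it, and cell markers are named as a check of the cell line; their values had been seen. The methods describe 3 independent replicates, and p-values measure only the spread between these libraries. Libraries of a group differed beyond counting error (chi-square over its degrees of freedom, 48.2 to 78.4). Symbols, exon lengths and overlaps came from GENCODE 29 and promoters from RefSeq (GRCh38.p14).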

Additional observations from a re-analysis of the deposited data

How the results depend on the processing

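The 3362 genes called (1721 higher, 1641 lower) became 5782 with DESeq2 (2940 and 2842), 1320 at an adjusted p under 0.01 (673 and 647) and 1072 at an unadjusted p under 0.05 with an absolute log2 fold change above 1 (596 and 476). Leaving out 1 library gave 1755 to 3183 genes (898 to 1661 higher, 857 to 1522 lower). Same-numbered libraries showed no shared deviation (correlations 0.0456, -0.0399 and -0.0394), and other pairings lay between -0.0438 and 0.0773. The main fit had no replicate block, and whether same-numbered libraries share a preparation cannot be told from this. A replicate block gave 1858 genes (950 and 908). Of the ligases, chosen with this contrast in view so that their calls support nothing, 4 were called and 3 or 4 without 1 library, and 1 (RNF14) passed the unadjusted threshold with the fold limit. Of the list genes, 10 were called, 20 with DESeq2, 5 at an adjusted p under 0.01, 0 with the fold limit, and 6 to 11 without 1 library. ARIH1 (0.02, up to 0.15 without 1 library) reversed to -0.10 without NC replicate 1 and -0.04 without shPRMT6 replicate 1. With CPM per kilobase of exon in place of FPKM, 8 of 10 ligases kept their rank in NC, and RNF216 and RBCK1 changed places. The length implied by the deposited FPKM was 6137 to 6205 bases for RBCK1, against 4024 exon bases here. For RNF216 it was 8930 to 9025 against 7619. Why these lengths differ was not tested. What change could be detected at the spread of RNF31 or ARIH1 was not tested.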

Other observations

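The hairpins listed in the methods were set beside the transcripts of the ligases, since a hairpin's guide strand can pair through its seed with other transcripts. The 21-base targets are printed because the sources used here do not name the hairpin or hairpins sequenced. The paper's figure legends name shRNA 2 and 3 for a growth assay and shRNA 2 for a PCR of U87 RNA. Capitals mark the 7 bases that a transcript shares with a target when it pairs with guide bases 2 to 8.
shRNA 1: gcccagtttgagaTGCCTTAt
shRNA 2: caccggcattctgAGCATCTt
shRNA 3: cacggacgtttcaGGAGAGAt
The first target occurs in 0 of 3 PRMT6 transcripts of GENCODE 29, the second in 2 and the third in 3. The 7-base sites occur in the 3′ UTR of 16.1%, 17.2% and 22.1% of 13259 genes, for shRNA 1, 2 and 3. In RNF144B, the lower paralog, the 3′ UTR holds 2 sites of shRNA 2 and 1 of shRNA 3. RNF144A, the higher paralog, holds 1 site of shRNA 1, and RNF14 holds 1 site of shRNA 2. RNF216 holds 1, 1 and 3 sites of shRNA 1, 2 and 3, ARIH2 holds 1, 0 and 1, and ARIH1 holds 5, 2 and 1. RNF19A, RNF19B, RNF31 and RBCK1 hold 0 sites of any. The 3′ UTRs differ in length, from 834 bases in RNF19B through 3807 in RNF144B to 19693 in ARIH1, so the numbers of sites are not comparable between genes. A site is a match of letters, and its part in any level was not tested.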
